A study of Tupaia belangeri with 6 samples.

Results

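The L1-like features are annotated tree shrew transcripts whose names are L1RE1li or LORF2li followed by a number, the names given to copies resembling the first and the second open reading frame of the LINE-1 (L1) retrotransposon. Features of these names with at least 500 UMIs (unique molecular identifiers, each 1 counted RNA molecule) summed over all nuclei of the 6 hippocampal libraries were taken, which gave 178 features, 102 LORF2li and 76 L1RE1li, of 577 features of these names and of 83605 in the annotation. UMI sums therefore chose the members and are given as description only. The members held 727285 UMIs, 0.46% of all UMIs, and 95.2% of the UMIs of all 577 names. Their sums ran from 501 to 60627 UMIs with a median of 1757, and the 10 largest held 34.4% of the members' UMIs. Just inside the limit were LORF2li274 with 503 UMIs and LORF2li283 with 501 UMIs, and just outside were LORF2li162 with 495 UMIs and LORF2li200 with 493 UMIs.

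L1 is the main autonomous retrotransposon of most mammalian genomes. A full-length element encodes an RNA-binding protein (ORF1p, from the first reading frame) and a protein with endonuclease and reverse transcriptase activity (ORF2p, from the second), which together copy the element's RNA back into the genome, although most genomic copies are truncated and cannot move. Transcription of full-length copies is held down by DNA methylation and by silencing complexes such as HUSH and TRIM28-SETDB1, copies within introns are also transcribed as part of their host genes' nuclear pre-mRNA, and L1 activity has been described in neural progenitors, in neurons and in ageing tissue. That the members are L1 copies rests on their names: their sequences, positions, lengths and host genes were not analysed here, so that levels were compared between classes and libraries within a member, and not between members. Near-identical copies share reads, and how such reads were counted is not given in the sources used here, so the assignment of UMIs to a single copy is uncertain.

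The libraries came from single hippocampal nuclei of 6 naturally aged tree shrews (Tupaia belangeri, TSs), 1 animal per library. The 3 ALP TSs had Alzheimer's-like pathology, and the 3 control TSs were age-matched healthy animals from the same colony. The study chose ALP animals by slow passage of a pipeline maze. In its ALP group it also reports other behavioural deficits and more amyloid-beta, amyloid precursor protein and phosphorylated Tau in the hippocampus. Imaging there gave a smaller hippocampus and a lower glucose uptake of the brain. No transgene or drug is named in the sources used here, and the sex of the animal behind each library is not labelled. The p-values of the fits by class therefore measure the spread between 3 animals per group.

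The libraries held 19182981 to 35898940 UMIs. After the study's limits on genes and mitochondrial UMIs, 28233 of 37603 barcodes remained, 14387 from control TSs and 13846 from ALP TSs, with 1614 (Control 2) to 7022 (Control 1) nuclei per library. The kept nuclei held 21.1% (Control 2) to 54.3% (ALP 3) of the UMIs of their library, and 252647 of the members' 727285 UMIs. No pair of libraries shared more than 0.465% of its barcodes. Y-linked transcripts (DDX3Y, KDM5D and USP9Y) were abundant in Control 1, Control 2 and ALP 2, with 1489 to 2316 UMIs, and near 0 in Control 3, ALP 1 and ALP 3, with 1 to 20 UMIs. Control 3 stood apart from the other libraries in its share of L1-like UMIs, and results that rest on it are also given without it.

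Nuclei were clustered with the L1-like names left out of the variable genes, and 26 of 37 clusters were named from markers. They held 24380 nuclei in 10 classes: oligodendrocyte-like (Oligo-like, 8701 nuclei), astrocyte-like (Astro-like, 3199), pyramidal neuron-like (Pyra-like, 2858), oligodendrocyte progenitor-like (OPC-like, 2721), inhibitory neuron-like (InN-like, 2437), dentate granule neuron-like (Gran-like, 2297), microglia-like (Micro-like, 1396), endothelial-like (Endo-like, 498), ependymal-like (172) and mural cell-like (Mural-like, 101). Markers of granule, pyramidal and inhibitory neurons, the neuron types of the labelled tissue, defined separate clusters. Another 2547 nuclei in 2 clusters of low depth and 1306 nuclei in 9 clusters stayed unnamed. Control 2 had 50 Gran-like and 35 Micro-like nuclei, against 909 and 485 in Control 1. The classes were built from the same nuclei, so their levels are described without a test.

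Among the kept nuclei, granule neurons had the highest share of L1-like UMIs of the large classes. Class shares were not computed without the limit of 2500 genes. Without it the Gran-like, Pyra-like and InN-like classes held more nuclei in each library, for example 945 rather than 531 Pyra-like nuclei in Control 1. In Gran-like nuclei the members took 0.532% ± 0.116 of all UMIs (SD, n = 6 libraries), against 0.438% ± 0.0967 in OPC-like, 0.424% ± 0.0901 in Pyra-like, 0.422% ± 0.129 in InN-like, 0.384% ± 0.0946 in Micro-like and 0.357% ± 0.104 in Astro-like nuclei. Oligo-like nuclei, at 0.319% ± 0.0744, and Endo-like nuclei, at 0.317% ± 0.0576, were lowest. The SDs are mostly differences between libraries that all classes share. Within a library the order was steadier: Gran-like nuclei ranked first in 4 libraries and second, after Mural-like nuclei, in Control 1 and ALP 1, and the lowest class was Oligo-like or Endo-like in each of the 6. The highest class exceeded the lowest by 1.51 to 1.93 times within a library. Neighbours in the middle of the order, from OPC-like to Ependymal-like (0.402% ± 0.0835), did not differ beyond their spread.

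**Figure D1:**
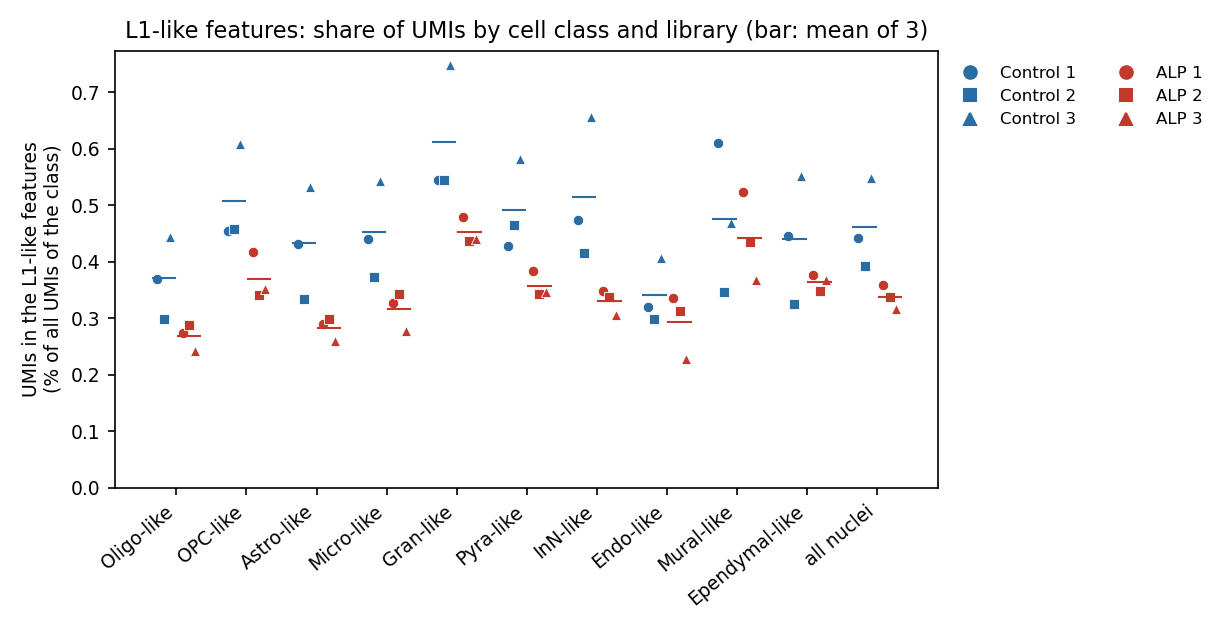
Share of UMIs in the 178 L1-like features (vertical axis, % of all UMIs of the class) in each named class and in all kept nuclei, with 1 point per library (blue, control TSs; red, ALP TSs) and a bar at the mean of 3. ALP points lie below control points in 7 classes, and Control 3 (blue triangle) is highest in each class but Mural-like.

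The place of Mural-like nuclei (0.458% ± 0.0987, 101 nuclei and 1071 member UMIs) turned on a single feature. LORF2li146 had 71, 14 and 31 UMIs in the Mural-like nuclei of Control 1, 2 and 3 and 56, 17 and 56 in those of ALP 1, 2 and 3. Without it the Mural-like share was 0.216% to 0.493%, and Gran-like nuclei ranked first in 6 of 6 libraries. In CPM, the UMIs of a feature per 1000000 UMIs of the class and library, LORF2li146 was at 1160 ± 539 (SD, n = 6) in Mural-like nuclei, 40.9 in Endo-like nuclei and at most 5.3 in every other named class.

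The 2 families were not mixed alike in all classes. LORF2li features supplied 62.7% ± 2.78 of member UMIs over all nuclei (SD, n = 6), 68.9% ± 1.39 in Oligo-like and 68.1% ± 2.08 in InN-like nuclei, but 55.6% ± 4.91 in Pyra-like and 45.1% ± 6.26 in Endo-like nuclei. The Oligo-like values (67.8% to 71.3%) lay above the Endo-like values (35.2% to 52.1%) in all 6 libraries. L1RE1li118 and L1RE1li51 were both high in Endo-like nuclei, and L1RE1li118 and L1RE1li231 in Pyra-like nuclei, as given below. The mix was not recomputed without these features. In both classes it may rest on them rather than on the family.

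The 10 largest members differed in where they were found. L1RE1li118, the member with the most UMIs, was at 715 CPM (mean of 6 libraries) in Endo-like, 541 in Gran-like, 464 in Pyra-like and 436 in OPC-like nuclei, against 44.2 in Oligo-like and 34.9 in Astro-like nuclei. It was also higher in InN-like nuclei (153) than in Oligo-like nuclei. LORF2li194, LORF2li313 and LORF2li235 were higher in all 3 neuronal classes than in Oligo-like nuclei: LORF2li194 was at 187 in granule, 182 in pyramidal and 158 in inhibitory neurons and at 19.1 in Oligo-like nuclei, LORF2li313 at 159, 138 and 141 against 30.8, and LORF2li235 at 79.8, 91.6 and 116 against 8.7. LORF2li16 was high in glia and granule neurons, at 242 in Astro-like, 214 in Gran-like and 202 in OPC-like nuclei, and low in InN-like nuclei, at 20.4. LORF2li252 was highest in Oligo-like nuclei (221) and lowest in Endo-like nuclei (21.3), and LORF2li26 reached 173 in Gran-like and 120 in Oligo-like nuclei with 15.3 in Astro-like nuclei. LORF2li312 ranged from 40.4 in Mural-like to 166 in Gran-like nuclei, and was at 58.3 in Oligo-like nuclei. L1RE1li78 was the most even of the 10, between 42.1 in Ependymal-like and 119 in InN-like nuclei.

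Most members had no class that led in all 6 libraries. The highest class was the same in 6 of 6 libraries for 21 of 178 members, or 11.8%, compared with 16.9% of all 15815 features with at least 500 UMIs, and 15 of them (8.43%, against 12.3% of all such features) also exceeded the next class at least 2-fold. These shares are a description: members and background differ in depth, which was not matched. The median member's highest class exceeded the next by 1.33 times.

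Micro-like nuclei led in 6 of 6 libraries for 3 members, of which the 2 with the highest ratio to the next class are described. LORF2li170 was at 190, 137 and 148 CPM in the Micro-like nuclei of control TSs and at 109, 241 and 183 in those of ALP TSs, 54.9 times its level in the next class. L1RE1li59 was at 326 ± 158 (SD, n = 6) in Micro-like nuclei, 74.7 in Astro-like nuclei and 0.9 in Oligo-like nuclei. In astrocytes, LORF2li292 was at 40.2, 118 and 166 CPM in control TSs and at 178, 76.0 and 155 in ALP TSs, 8.0 times the next class. L1RE1li38, at 121 ± 53.3 in Astro-like nuclei, led by 1.9 times. Both groups of libraries carried these class-leading members, with overlapping values.

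Among neurons, LORF2li216 led in InN-like nuclei, with 241, 183 and 604 CPM in control TSs and 111, 125 and 87.7 in ALP TSs, 12.3 times its level in OPC-like nuclei. LORF2li11 and L1RE1li231 led in Pyra-like nuclei, by 2.3 and 3.3 times. L1RE1li231 varied widely there, at 126, 334 and 760 in control TSs and at 133, 217 and 139 in ALP TSs. LORF2li77 (11.4 CPM, 4.1 times the next class) and LORF2li176 (33.8, 1.8 times) led in Gran-like nuclei, and LORF2li82 (17.2, 3.2 times) in InN-like nuclei. In the oligodendrocyte lineage, LORF2li5 (251 ± 42.4, 2.1 times) and LORF2li42 (417, 1.4 times the Micro-like level) led in Oligo-like nuclei and L1RE1li35 (48.5, 1.7 times) in OPC-like nuclei. L1RE1li51 (329 ± 127, 5.1 times) led in Endo-like nuclei, and L1RE1li124 (56.6 from 18 UMIs, 6.5 times) and L1RE1li242 (144, 3.9 times) in Ependymal-like nuclei.

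**Figure D2:**
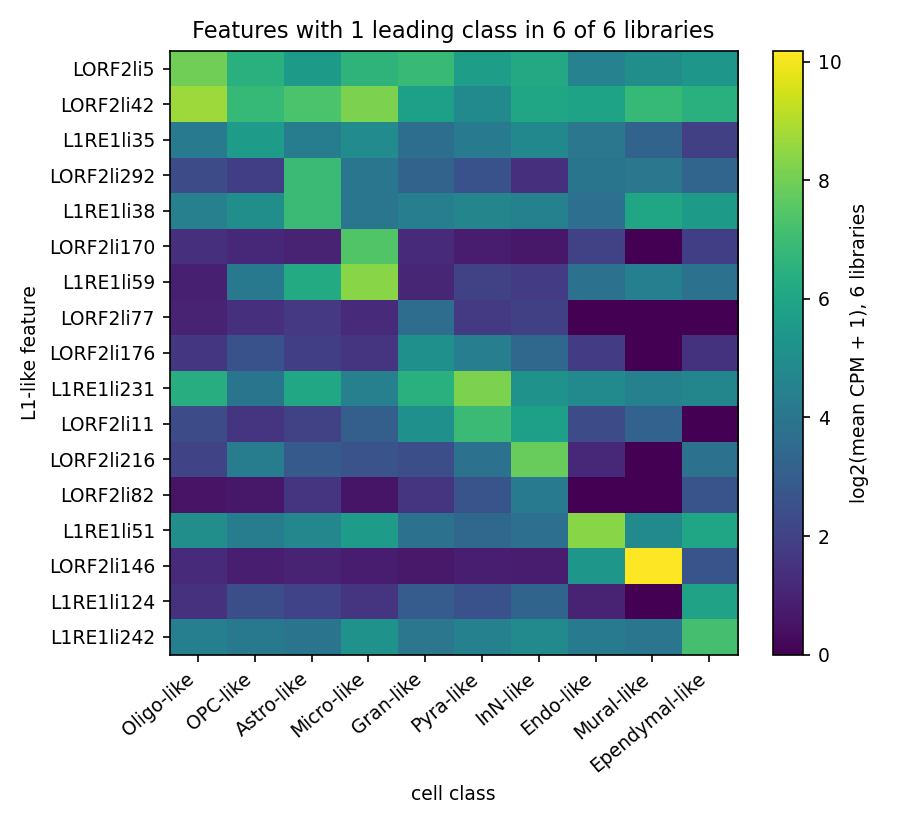
Level of the 17 members named for a leading class (rows) in the 10 named classes (columns), as log2 of the mean CPM over 6 libraries plus 1 (colour). Each row is brightest in 1 class, from LORF2li5 in Oligo-like to L1RE1li242 in Ependymal-like nuclei, and rows should be read one at a time, since member lengths are unknown.

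Several of these profiles ran close to that of a gene. Over 60 sums (10 classes by 6 libraries, which share library and depth) and 7864 genes with plain symbols, the gene most like LORF2li170 was CD2, a lymphocyte adhesion receptor (Pearson r = 0.91), that most like LORF2li146 was SLC6A12, a betaine and GABA transporter (r = 0.90), and those most like L1RE1li124 were NEK10, HYDIN and DNAH5 (r = 0.86, 0.85 and 0.85), of which the last are components of motile cilia. LORF2li42 was most like QKI, an RNA-binding protein of myelinating glia (r = 0.82). LORF2li11 was most like RNF207 (r = 0.86) and then CNTNAP2, an axonal adhesion protein (r = 0.84). L1RE1li78, not named for a leading class, was most like SEC24B, a coat protein of secretory vesicles (r = 0.89). These values are descriptions across sums, and the first gene given has the highest r of 7864 genes. Over the 37 members named, that highest r ran from 0.65 (L1RE1li69) to 0.91 (LORF2li170), and the pairs above are a choice from these. Among those left out, L1RE1li51 was most like RPL11 (r = 0.89). The gene MRPL22 was among those most like L1RE1li40 (r = 0.74), L1RE1li70 (0.71) and LORF2li206 (0.76) alike.

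The main comparison was between ALP and control TSs, the study's contrast of aged animals with Alzheimer's-like pathology and healthy aged animals. L1-like features took a smaller share of UMIs in ALP TSs. Over all kept nuclei the share was 0.442%, 0.392% and 0.549% in Control 1, 2 and 3 and 0.358%, 0.336% and 0.315% in ALP 1, 2 and 3, so the groups did not overlap. The mean was 0.461% ± 0.0803 in control TSs and 0.336% ± 0.0212 in ALP TSs (SD, n = 3), a ratio of 0.731, or 0.808 without Control 3. Where Y-linked transcripts were abundant the ratio was 0.808, with ALP 2 alone against Control 1 and Control 2. Where they were near 0 it was 0.613, with ALP 1 and ALP 3 against Control 3 alone. The second ratio therefore cannot be given without Control 3. Nuclei left out for their many genes had a higher member share than the kept nuclei in 6 of 6 libraries (0.35% to 0.703%).

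The lower share was seen in 7 of 10 classes with all 3 ALP values below all 3 control values. The ratio of ALP to control means was 0.642 in InN-like and 0.654 in Astro-like nuclei, 0.699 in Micro-like nuclei, and between 0.723 and 0.739 in Oligo-like, Pyra-like, OPC-like and Gran-like nuclei, and without Control 3 the lowest of the 10 ratios was 0.739. In Ependymal-like (0.825), Endo-like (0.857) and Mural-like nuclei (0.931) the groups overlapped. No p is given for these sums, since the members were chosen by their UMIs.

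Antisense-named features, 22595 annotated transcripts named as antisense partners of genes, moved with the L1-like share. They took 6.87%, 5.93% and 8.58% of UMIs in Control 1, 2 and 3 and 5.23%, 5.08% and 4.58% in ALP 1, 2 and 3, the same order of the 6 libraries as for the members. For every 100 antisense-named UMIs there were 6.43, 6.60 and 6.40 member UMIs in control TSs and 6.84, 6.63 and 6.88 in ALP TSs, a ratio of means of 1.05. By class, the antisense-named share lay below all control values in all 3 ALP libraries in 7 of 10 classes, Mural-like nuclei among them but Oligo-like nuclei not. Features with long noncoding names (LINC) went the other way on average, at 21.8% ± 4.98 of UMIs in control TSs and 28.2% ± 3.48 in ALP TSs. Their values overlapped over all nuclei. In 2 of 10 classes all 3 ALP values lay above all 3 control values. These were Pyra-like nuclei (32.0% ± 5.37 in ALP and 20.2% ± 2.36 in control TSs) and Gran-like nuclei (21.1% ± 2.43 and 17.1% ± 2.14). Other retroelement names (POL, ENV, GAG, LIN1 and L1TD1) took 0.112% ± 0.0112 of UMIs in control TSs and 0.0925% ± 0.00133 in ALP TSs. Whether counting was by strand is not given in the sources used here, and the part of these other feature types in the lower L1-like share was not tested.

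**Figure D3:**
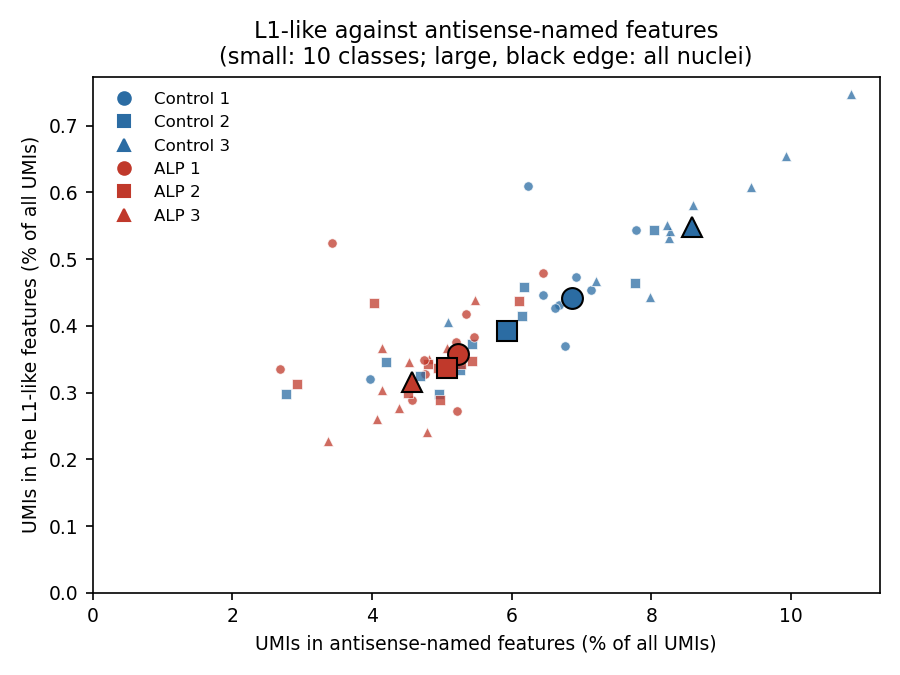
Share of UMIs in L1-like features (vertical axis, %) against the share in antisense-named features (horizontal axis, %) for each library, as small points for the 10 named classes and large points with a black edge for all kept nuclei (blue, control TSs; red, ALP TSs). Both shares put the libraries in the same order over all nuclei, from Control 3 (8.58% antisense-named) down to ALP 3 (4.58%).

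For single members, UMIs were summed per class and library and fitted with edgeR's quasi-likelihood test over all features, with Benjamini-Hochberg (BH) adjustment. A feature was called at an adjusted p under 0.05 and a log2 fold change (ALP over control) beyond 0.25. There were 18 calls of 16 members, 17 lower and 1 higher in ALP TSs. In Oligo-like nuclei 6 of 96 members tested were called, 5 lower and 1 higher, where 2.50% of all 11820 features were called, 1.48% lower and 1.02% higher. In OPC-like nuclei 6 of 83 members were called lower, where 1.69% of all 8793 features were called and 1.29% were called and lower. In Gran-like nuclei 4 of 84 members were called lower, where 1.07% of 9361 features were called and 0.887% were called and lower. In Micro-like nuclei 1 of 22 was called lower, where 0.824% of 4978 features were called and 0.342% were called and lower. In Astro-like nuclei 1 of 78 was called lower, where 0.267% of 10095 features were called and 0.149% were called and lower. In Oligo-like, OPC-like, Gran-like, Micro-like and Astro-like nuclei 6.25%, 7.23%, 4.76%, 4.55% and 1.28% of the members tested were called. Of the antisense-named features 7.63%, 7.65%, 4.33%, 3.55% and 1.11% were called in the same order. Only members that reached the count filter were tested, and a member that is high in 1 group passes more easily.

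These counts turned on single libraries, and so did those over all features. In Oligo-like nuclei 14 members were called without Control 2 (7.41% of all features) and 11 without ALP 2 (4.25%), but 1 without Control 3, without ALP 1 or without ALP 3, where that member was the only feature called. In OPC-like nuclei 14 were called without Control 2 (4.07% of all features), 1 without ALP 2 (0.783%) and 0 without Control 3 (0.195%), ALP 1 or ALP 3 (0%). In Gran-like nuclei 16 were called without Control 1 (4.99%), 2 without Control 3 (0.0576%), 1 without ALP 2 (0.131%) and 0 without ALP 1 or ALP 3 (0%). In Astro-like nuclei 3 were called without Control 1 (0.647%), 8 without Control 2 (1.63%), 4 without ALP 2 (2.51%) and 0 without Control 3, ALP 1 or ALP 3 (2 features each). In Micro-like nuclei 2 were called without Control 1 (0.889%) and 0 without Control 3, ALP 1 or ALP 3 (1, 11 and 10 features). Where edgeR called 0, between 3 (of 19 tested, Micro-like without Control 3) and 40 members (of 100, Astro-like without ALP 1) had an unadjusted p under 0.05. The share of all features at that p was not computed for these fits. With all 6 libraries 947 features were lower and 779 higher of 10095 in Astro-like nuclei, and 272 and 317 of 4978 in Micro-like nuclei.

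In pyramidal neurons, interneurons and the sum of all nuclei no member was called, nor was any other feature (0% of 13376, of 11944 and of 22749). At an unadjusted p under 0.05, 39 members were lower and 5 higher in Pyra-like nuclei (of 141 tested), 44 lower and 6 higher in InN-like nuclei (of 121), and 56 lower and 8 higher over all nuclei (of 178). DESeq2 called 11, 22 and 41 members there, beside 2.27%, 3.95% and 7.65% of all features. Single libraries decided these counts as well: edgeR called 6 members in Pyra-like nuclei without Control 1 (1.16% of all features) and 1 without ALP 2 (0.194%), 20 and 23 in InN-like nuclei without Control 1 (4.03%) and Control 2 (3.61%), and 38 over all nuclei without Control 2 (9.20%). Among all features 9.33%, 11.5% and 13.9% were lower at that p in the 3 sums, and 7.62%, 8.18% and 9.49% higher. In the small classes 3 members each were tested in Endo-like and Ependymal-like nuclei, with 0 called by edgeR and 0 at an unadjusted p under 0.05. No other feature was called there either (0% of 1536 and of 899). At that unadjusted p 35 features were lower and 53 higher in Endo-like nuclei, and 31 and 35 in Ependymal-like nuclei.

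The fitted fold changes leaned downward in every large class. The median over tested members was -0.64 in Astro-like, -0.61 in Micro-like, -0.44 in InN-like, -0.41 in Gran-like, -0.36 in Oligo-like, -0.34 in Pyra-like and -0.32 in OPC-like nuclei on the log2 scale. The median over all features was between -0.01 and 0.01, where the TMM scaling of the fits centres the bulk of features. Features with plain gene symbols had medians from 0.01 (Micro-like) to 0.07 (InN-like), and 0.11 over all nuclei. All 3 ALP values lay below all 3 control values for 27 of 78 members in Astro-like nuclei (11.3% of all features), 38 of 121 in InN-like nuclei (13.0%), 37 of 141 in Pyra-like nuclei (11.2%), 22 of 83 in OPC-like nuclei (9.77%), 22 of 84 in Gran-like nuclei (10.0%), 20 of 96 in Oligo-like nuclei (10.5%) and 4 of 22 in Micro-like nuclei (7.33%). Antisense-named features had medians of -0.41 to -0.62 in the same 7 classes, and 69.0% to 79.6% of them had a fold change below 0, beside 68.2% to 79.5% of the members and 48.8% to 51.1% of all features. All 3 ALP values lay below all 3 control values for 20.9% (Micro-like) to 34.6% (InN-like) of antisense-named features, beside 18.2% (Micro-like) to 34.6% (Astro-like) of the members. By family, the median in Oligo-like nuclei was -0.26 for L1RE1li and -0.37 for LORF2li features, and in Astro-like nuclei it was -0.43 and -0.76. LORF2li features also had the lower median in OPC-like, Pyra-like and InN-like nuclei. The order was reversed in Gran-like (-0.53 for L1RE1li and -0.41 for LORF2li) and Micro-like nuclei (-0.65 and -0.52). Over all nuclei the medians were -0.33 and -0.32, and the families were not tested against each other.

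**Figure D4:**
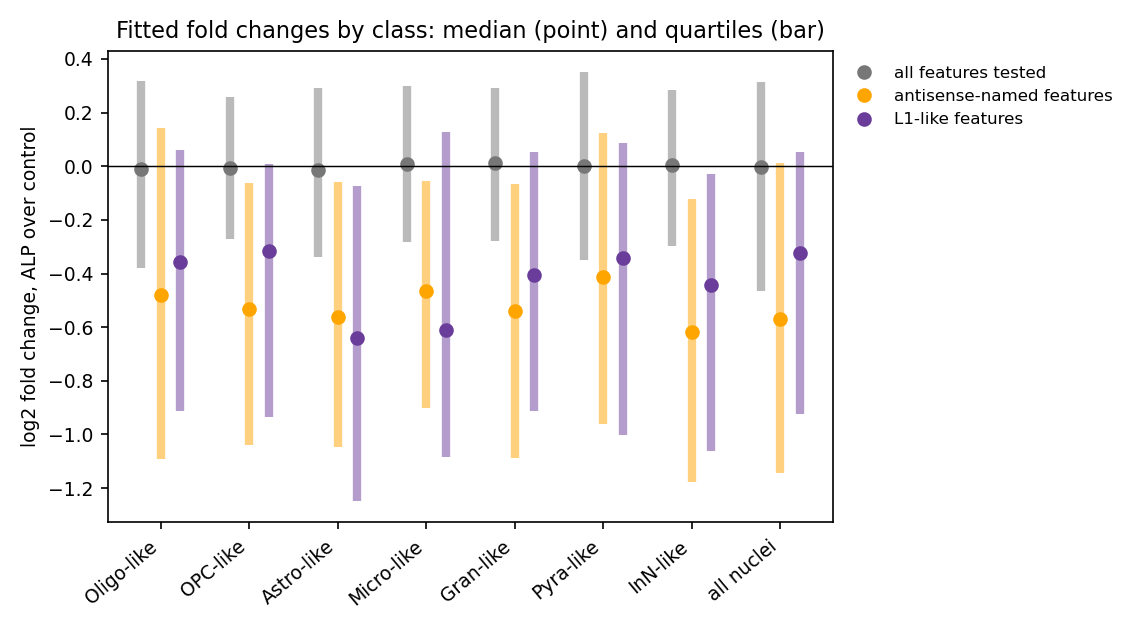
Fitted log2 fold changes, ALP over control TSs (vertical axis), of all features tested (grey), antisense-named features (orange) and L1-like features (purple) in 7 classes and all nuclei, with a point at the median and a bar from the lower to the upper quartile. Medians of all features lie near 0, where the TMM scaling centres the bulk of features. Those of antisense-named and L1-like features lie between -0.32 and -0.64.

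Oligo-like nuclei of the 2 groups filled different clusters, which bears on each value of that class. Cluster 3 held 40.1% of the Oligo-like nuclei of ALP TSs and 4.90% of those of control TSs, while cluster 6 held 7.50% and 30.5% and cluster 10 held 6.62% and 18.9%. Pyra-like nuclei were also spread unevenly, with 42.3% of those of ALP TSs and 23.9% of those of control TSs in cluster 11. Control 3 had 190 Pyra-like nuclei in cluster 21 and 1 in cluster 17, where Control 1 had 28 and 110. Among Gran-like nuclei, cluster 23 held 18.9% of those of control TSs and 5.22% of those of ALP TSs. Of its 288 nuclei 216 came from Control 1 and 1 from Control 2. The part of this makeup in the fold changes was not tested.

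L1RE1li70 had the lowest adjusted p of any member. In Oligo-like nuclei it had 671, 29 and 309 UMIs in Control 1, 2 and 3 and 12, 16 and 13 in ALP 1, 2 and 3, which is 182, 84.2 and 115 against 7.89, 8.10 and 6.07 CPM. No ALP library came near a control library. The log2 fold change was -4.06 (SE 0.32, adjusted p = 7.1e-04, edgeR). Within clusters the values kept the same order: in 6 of the 7 Oligo-like clusters all 3 ALP libraries lay below all 3 control libraries. In cluster 3 it was at 196, 65.8 and 168 CPM in Control 1, 2 and 3 and at 9.08, 8.79 and 6.26 in ALP 1, 2 and 3, and in cluster 6 at 194, 98.5 and 121 against 0, 0 and 7.998. These values come from 0 to 279 UMIs per library, and the seventh cluster, with 41 nuclei, had 3 UMIs in all. L1RE1li70 also fell in Gran-like nuclei, from 81.9, 35.8 and 36.9 to 7.6, 9.1 and 5.8 CPM (log2 fold change -2.84, SE 0.40, adjusted p = 0.016, edgeR). The Control 2 value there came from 50 nuclei with 195648 UMIs of all features. In Gran-like nuclei this member passed the count filter through the control libraries alone. In other classes the call was not reached: the log2 fold change was -1.81 ± 0.56 (SE) in Micro-like nuclei, -1.70 ± 0.46 in OPC-like, -1.59 ± 0.47 in Astro-like and -1.12 ± 0.36 in Pyra-like nuclei, and -0.55 ± 0.42 in InN-like nuclei, with adjusted p of 0.17, 0.091, 0.11, 0.17 and 0.51. In ALP TSs it was at 7.35 ± 1.12 CPM (SD, n = 3) in Oligo-like and at 11.1, 9.5 and 8.0 in InN-like nuclei. In control TSs it was at 127 ± 49.9 in Oligo-like and at 25.2, 6.8 and 14.96 in InN-like nuclei, so that the classes stood apart in control TSs and lay close together in ALP TSs.

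The difference between classes was tested directly for the contrast of oligodendrocytes and neurons. In this fit the class sums of 1 animal counted as separate observations, so its p-values do not measure the spread between animals alone. For L1RE1li70 the Oligo-like log2 fold change was 2.60 lower than the mean of the Gran-like, Pyra-like and InN-like ones (difference -2.60, SE 0.27, adjusted p = 3.5e-06, edgeR interaction with library as a block). It was the only one of 169 members tested to pass, beside 0.296% of all 16208 features, while 11 members and 1680 features (10.4%) had an unadjusted p under 0.05. The genes most like L1RE1li70 over the 60 sums were CCDC85C (r = 0.75) and MRPL22, a protein of the mitochondrial ribosome (r = 0.71).

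**Figure D5:**
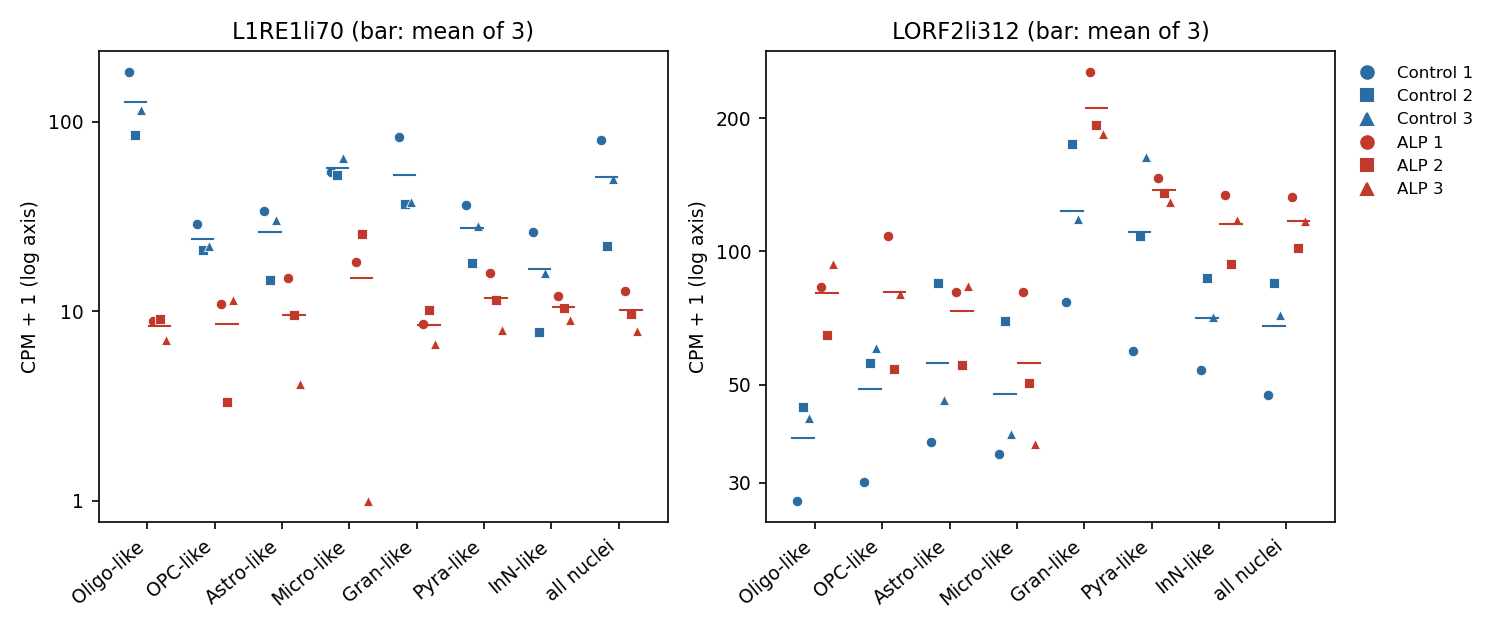
Level of L1RE1li70 (left) and LORF2li312 (right) by class and library, as CPM plus 1 (vertical log axis), with 1 point per library (blue, control TSs; red, ALP TSs) and a bar at the mean of 3. In Oligo-like nuclei L1RE1li70 lies between 84.2 and 182 in control TSs and between 6.07 and 8.10 in ALP TSs, and LORF2li312 lies higher in ALP TSs.

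The other members called lower in oligodendrocytes were scarce. LORF2li186 had 25, 3 and 44 UMIs in Control 1, 2 and 3 and 1, 1 and 2 in ALP 1, 2 and 3 (log2 fold change -3.73, SE 0.63, adjusted p = 0.033, edgeR). L1RE1li69 had 31, 3 and 69 UMIs against 3, 4 and 3 (-2.96, SE 0.58, adjusted p = 0.039). L1RE1li40 had 22, 2 and 90 against 2, 1 and 1 (-4.34, SE 0.88, adjusted p = 0.039). All 3 features passed the count filter through the control libraries alone, the group where they were high. Control 3 carried much of all 3: without it the log2 fold changes were -3.15, -2.12 and -2.85, with adjusted p of 0.15, 0.18 and 0.18. LORF2li208, with 227 UMIs in control and 54 in ALP TSs, fell by 1.65 on the log2 scale (SE 0.37, adjusted p = 0.043).

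LORF2li312 was the single member called higher in ALP TSs. In Oligo-like nuclei it was at 26.3, 43.6 and 40.9 CPM in Control 1, 2 and 3 and at 82.2, 63.8 and 92.8 in ALP 1, 2 and 3, and the groups did not overlap (log2 fold change 1.30, SE 0.25, adjusted p = 0.039, edgeR). In InN-like nuclei it was at 53.0, 86.0 and 70.1 against 133, 92.8 and 117, and in Gran-like nuclei at 75.7, 174 and 117 against 253, 191 and 183, with fold changes of 0.87 ± 0.23 (SE) and 0.98 ± 0.27 that were not called (adjusted p = 0.080 and 0.092). The call in Oligo-like nuclei was lost without Control 1 (adjusted p = 0.060), Control 3 (0.15), ALP 1 (0.17) or ALP 3 (0.22). L1RE1li118, the largest member, was also higher in the ALP libraries in Pyra-like nuclei, at 190, 329 and 332 against 693, 354 and 885 CPM, without being called (log2 fold change 1.46, SE 0.38, adjusted p = 0.13).

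In oligodendrocyte progenitors 6 of 51 LORF2li features tested were called lower and 0 of 32 L1RE1li features were called. Of all 8793 features 1.69% were called there. Without Control 3, ALP 1 or ALP 3 no member was called, and the families were not tested against each other. LORF2li183 was at 94.5, 55.0 and 175 CPM in control TSs and at 31.9, 38.2 and 25.4 in ALP TSs (log2 fold change -1.79, SE 0.36, adjusted p = 0.040, edgeR). LORF2li40 was at 98.6, 85.0 and 144 against 59.8, 40.5 and 40.4 (-1.25, SE 0.25, adjusted p = 0.040). LORF2li14 was at 134, 62.5 and 108 against 53.8, 34.7 and 40.4 (-1.30, SE 0.27, adjusted p = 0.040). In each of these the groups were apart, by least in LORF2li14. LORF2li210 (89 ± 15 against 45.5 ± 5.5, SD, n = 3) and LORF2li219 (47.8 ± 19.8 against 13.7 ± 6.1) fell by 0.97 and 1.81 on the log2 scale, both with an adjusted p of 0.042. LORF2li74 was at 33.8, 22.5 and 53.1 against 8.0, 12.7 and 6.0 (-2.01, SE 0.41, adjusted p = 0.040), and passed the count filter through the control libraries alone.

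LORF2li74 also fell in granule neurons, where it was most abundant, from 127, 76.7 and 115 to 29.2, 26.5 and 22.1 CPM (log2 fold change -2.05, SE 0.23, adjusted p = 0.015, edgeR). The 3 ALP values lay close together, well under the lowest control value. LORF2li195, with 322 UMIs in control and 47 in ALP TSs (-2.38, SE 0.46), and LORF2li86, with 384 and 111 UMIs (-1.27, SE 0.25), fell there as well, both with an adjusted p of 0.048. The gene whose profile was most like that of LORF2li74 was CACNB2, a subunit of voltage-gated calcium channels (r = 0.81).

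A single member each was called lower in microglia and in astrocytes. LORF2li206 was at 121, 103 and 212 CPM in the Micro-like nuclei of control TSs and at 28.5, 49.3 and 20.4 in those of ALP TSs, from 75, 6 and 73 UMIs against 5, 18 and 4 (log2 fold change -2.10, SE 0.38, adjusted p = 0.012, edgeR). Without Control 3 its adjusted p was 0.090. LORF2li252, the fourth largest member, was at 104, 72.7 and 167 in the Astro-like nuclei of control TSs and at 27.9, 38.7 and 30.3 in those of ALP TSs (-1.69, SE 0.30, adjusted p = 0.047). It lay below control in all 3 ALP libraries in Oligo-like, OPC-like, Micro-like and InN-like nuclei too, where the log2 fold changes of -1.03 ± 0.27 (SE), -1.18 ± 0.33, -1.37 ± 0.40 and -1.31 ± 0.31 were not called (adjusted p = 0.064, 0.10, 0.14 and 0.066).

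Of the 12 members with the lowest adjusted p, L1RE1li70 alone, in Oligo-like nuclei, stayed called under all 16 alternative settings, while its call in Gran-like nuclei ended without ALP 1 and without ALP 3, where no member was called. Leaving out ALP 1 or ALP 3 ended each of the other 11 calls, and leaving out Control 3 ended 10 of them, all but that of LORF2li74 in Gran-like nuclei. With antisense-named features left out of the sums, an alternative chosen after the data were seen, 2 members were called in Oligo-like (14 of all 9984 features), 4 in OPC-like (29 of 7776), 2 in Gran-like (12 of 8057), 1 in Micro-like (31 of 4696) and 0 in Astro-like nuclei (10 of 8837). In Astro-like nuclei 37 of 78 members then had an unadjusted p under 0.05, and the share of all features at that p was not computed.

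Host genes that act on L1 were called in Oligo-like nuclei only, and there near the share of all features. Of 75 listed genes, 65 were in the annotation and 42 were tested in Oligo-like nuclei, where 1 was called (2.50% of all features). IFIH1, the cytosolic double-stranded RNA sensor MDA5, rose in Oligo-like nuclei from 7.12 ± 1.99 to 20.3 ± 2.63 TMM-scaled CPM (SD, n = 3, 51 against 107 UMIs, log2 fold change 1.43, SE 0.33, adjusted p = 0.048, edgeR). No listed gene was called in the other 6 large classes or over all nuclei, where 26 to 50 were tested. At an unadjusted p under 0.05, 7 were higher and 1 lower of 38 in Astro-like nuclei, beside 779 and 947 of all 10095 features. In Oligo-like nuclei 5 were higher and 4 lower of 42, beside 1142 and 1245 of all 11820 features. In each of the other 6 sums at most 2 passed in either direction. There 5.46% to 13.9% of all features were lower, and 317 of 4978 (Micro-like) to 2158 of 22749 (all nuclei) were higher. DESeq2 called 0 in all 8 sums. Without Control 2, edgeR called 4 of 42 listed genes in Oligo-like nuclei (7.41% of all features) and 1 of 50 over all nuclei (9.2%). Without the count filter it called 2 of 57 over all nuclei (6.16%). The median fold change of the listed genes was between -0.01 and 0.11 on the log2 scale in all 8 sums.

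In single libraries IFIH1 in Oligo-like nuclei was at 6.20, 5.76 and 9.41 TMM-scaled CPM in Control 1, 2 and 3, from 23, 2 and 26 UMIs, and at 22.0, 17.3 and 21.7 in ALP 1, 2 and 3, from 31, 33 and 43 UMIs. The groups did not overlap, but the call was close to the threshold. It ended under 11 of 16 alternatives, among them DESeq2 (adjusted p = 0.078) and the fits without Control 1 (0.10), Control 3 (0.15), ALP 1 (0.19) or ALP 3 (0.24), and the log2 fold change stayed between 1.20 and 1.71. In Astro-like nuclei its log2 fold change was 0.71 ± 0.30 (SE, adjusted p = 0.25).

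Among the silencing genes, MORC2 (log2 fold change 0.04 ± 0.26, SE), TASOR (0.17 ± 0.22), SETDB1 (0.16 ± 0.23) and MPHOSPH8 (0.55 ± 0.30), which encode HUSH and its partner enzymes, were not called in Oligo-like nuclei, with adjusted p of 0.96, 0.73, 0.75 and 0.34. The same held for the DNA methyltransferase DNMT1 (-0.15 ± 0.29, adjusted p = 0.82), the RNA-editing enzyme ADAR (-0.07 ± 0.24, adjusted p = 0.91) and the nucleotide hydrolase SAMHD1 (0.19 ± 0.35, adjusted p = 0.82).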

How the data were processed

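Single nuclei of frozen hippocampus from 3 control and 3 ALP TSs were profiled with the 10x Genomics 3′ kit. The authors deposited raw UMI counts per feature and barcode for each library (19182981 to 35898940 UMIs). They were made with Cell Ranger (version 3.1.0 in the methods and processing notes, 6.1.2 in the file headers) on a TreeshrewDB genome whose build is not given in the sources used here, nor is the use of strand or introns. The authors' tables were used unchanged.

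Barcodes with over 200 and under 2500 genes and under 5% mitochondrial UMIs, which rest on 3 features, were kept. They numbered 28233 of 37603, as many as the study states. Nuclei were clustered with scanpy 1.11.5 and leidenalg 0.10.2 (2000 variable genes without L1-like names, 30 components, resolution 2). A cluster was named from at least 3 markers, and stayed unnamed with 15% or more marked doublets, leading markers of another class, or a depth under 0.6 of its library's with none of its markers leading, a limit set after the data were seen. Scrublet marked doublets per library, which were kept in the main sums.

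UMIs were summed per library and class (at least 10 nuclei) and tested with edgeR 4.0.16 (R 4.3.3, quasi-likelihood, TMM, minimum count 10, BH over all features). CPM are per all UMIs of the sum, unless said to be TMM-scaled. Standard errors were taken from the fold change and its F statistic. On simulated counts with known changes, each change called in the fits by class had the right sign. Alternatives were DESeq2 1.42.0, upper-quartile scaling, no count filter, a replicate block, a term for Y-linked transcripts, each library left out, other nuclei and clusterings, and 2 added after the data were seen (antisense-named features left out, and Control 3 with ALP 3 left out).

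The members and gene lists were chosen with earlier results of these data known. Members named were the 12 called ones with the lowest adjusted p and groups that did not overlap, the 10 with the most UMIs, up to 2 per class with the highest ratio to the next class among those with the same leading class in 6 of 6 libraries, those at the limit of 500 UMIs, and the genes most like them. L1RE1li118 in Pyra-like nuclei and the called members outside the 12 were named after their values were seen.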

Additional observations from a re-analysis of the deposited data

Results flagged for a closer look

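The fold change of L1RE1li70 between ALP and control TSs differed between oligodendrocytes and neurons in a test of the difference itself (-2.60 on the log2 scale, SE 0.27, adjusted p = 3.5e-06, edgeR interaction with BH adjustment over 16208 features). The log2 fold change was -4.06 in Oligo-like nuclei, against -2.84 (Gran-like), -1.12 (Pyra-like) and -0.55 (InN-like), each from 3 animals per group. The Oligo-like nuclei of the 2 groups fell largely in different clusters (cluster 3 held 40.1% of those of ALP TSs and 4.90% of those of control TSs), and L1RE1li70 was lower in all 3 ALP libraries than in all 3 control libraries in 6 of 7 Oligo-like clusters. These clusters are parts of the same libraries, with 0 to 279 UMIs of it each. In cluster 16 the nearest values, 29.0 CPM in Control 2 and 23.2 CPM in ALP 2, came from 2 UMIs and 1 UMI. The difference from neurons was not tested within clusters. Its p-value counts the class sums of 1 animal as separate observations, and so does not measure the spread between animals alone. Groups of 3 libraries were not screened for single outlying samples.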

How the results depend on the processing

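The direction of the median fold change over members did not depend on the settings tried, while the number of calls did. The median log2 fold change over tested members was below 0 under all 17 settings in each of the 7 large classes and all 16 over all nuclei. L1RE1li70 in Oligo-like nuclei was called under all 16 alternatives. The comparison of oligodendrocytes with neurons gave 1 call under each of its 8 alternatives (0.0116% to 2.7% of all features).

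Called members numbered 6, 6, 1, 1 and 4 in Oligo-like, OPC-like, Astro-like, Micro-like and Gran-like nuclei, and 0 in Pyra-like and InN-like nuclei and over all nuclei. The shares of all features called were 2.5%, 1.69%, 0.267%, 0.824% and 1.07%, and 0% in the last 3 sums. Without the filter on low counts, which tests more members, they numbered 16, 21, 27, 3, 16, 17, 39 and 49 in the same order, beside 2.71%, 1.48%, 1.99%, 0.345%, 1.46%, 2.33%, 3.48% and 6.16% of all features. DESeq2 called 41 over all nuclei (7.65% of all features), 22 in InN-like (3.95%), 11 in Pyra-like (2.27%), 9 in Astro-like (2.2%) and 8 in Gran-like nuclei (1.76%). A term for Y-linked transcripts gave 12 in OPC-like (2.7% of all features), 6 in Astro-like (0.882%), 7 in Gran-like (1.15%) and 18 in InN-like nuclei (2.58%). Upper-quartile scaling gave 10 in InN-like nuclei (1.55%). With no upper limit on genes there were 14 in InN-like (2.97% of all features), 13 in Gran-like (4.9%) and 2 in Micro-like nuclei (1.05%). There were 0 in Astro-like (0.0808%), 3 in OPC-like (0.927%) and 11 in Oligo-like nuclei (4.76%). With L1-like features among the variable genes there were 10 in Oligo-like (4.85% of all features), 0 in Astro-like (0.217%) and 7 in Gran-like nuclei (1.96%). That clustering gives no other sum of all nuclei. Without marked doublets there were 0 in Astro-like (0.147% of all features) and 4 in InN-like nuclei (0.801%). There were 2 alternatives chosen after seeing the data. Leaving out antisense-named features gave 2 in Oligo-like (0.14% of all features), 0 in Astro-like (0.113%) and 2 in Gran-like nuclei (0.149%). Leaving out Control 3 with ALP 3 gave 1 in Oligo-like nuclei (0.00879%). It gave 0 in OPC-like (0%), Astro-like (0.0207%), Micro-like (0.0583%) and Gran-like nuclei (0%). Calls over all features also differed between settings, and the cause was not tested.

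Leaving out 1 library at a time gave 0 to 38 calls over all nuclei (0% to 9.2% of all features). It gave 0 to 23 in InN-like (0% to 4.03%), 0 to 6 in Pyra-like (0% to 1.16%) and 0 to 16 in Gran-like nuclei (0% to 4.99%). It gave 0 to 2 in Micro-like (0.0221% to 1.01%), 0 to 8 in Astro-like (0.0176% to 2.51%), 0 to 14 in OPC-like (0% to 4.07%) and 1 to 14 in Oligo-like nuclei (0.00766% to 7.41%).

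The libraries share only replicate numbers, not a pairing: deviations from the group means correlated at -0.097, -0.049 and -0.081 between same-numbered libraries. With the replicate block there were 1, 0, 0, 1 and 2 calls in Oligo-like, OPC-like, Astro-like, Micro-like and Gran-like nuclei, and 0 in the others. Of all features 0.0254%, 0.0114%, 0.119%, 0.342% and 0.385% were called in the same order, and 0% to 0.00837% in the others.

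The share of UMIs in members with no upper limit on genes was 0.446%, 0.464% and 0.655% in control TSs and 0.386%, 0.373% and 0.331% in ALP TSs. The scarcest calls rested on 4 UMIs in the 3 ALP libraries together.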
